A study of Drosophila melanogaster with 2 samples.

Results

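The cytoplasmic ribosomal proteins of Drosophila melanogaster are encoded by a large family of genes scattered over the genome, named RpL for the large and RpS for the small ribosomal subunit. The members described here were the protein-coding genes on the 6 main chromosome arms whose Ensembl symbol began with RpL or RpS followed by a digit, or with RpLP. This rule used no measured value and gave 92 of 13945 protein-coding genes, 54 for the large and 38 for the small subunit. Genes of mitochondrial ribosomal proteins, whose symbols begin with mRp, were not taken. The genes sta and Rack1, which encode small-subunit components under other names, were not taken by the rule either and are described at the end. Members named "-like" were taken by name, and what they encode was not examined.

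The peaks came from chromatin immunoprecipitation with sequencing (ChIP-seq) on whole embryos aged 0 to 24 h of the transgenic strain klu-GFP. The inserted transgene expresses Klumpfuss (Klu) fused to enhanced green fluorescent protein, and the precipitation used an antibody against the fluorescent tag. The series forms 1 group of 2 biological replicates, with no second genotype or treatment, and a control library was not analysed here. The embryos mix all cell types and all stages of that interval, so a peak does not say in which cells the protein was bound.

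Ribosomal protein genes are among the most highly transcribed genes of growing cells, and their products are needed in equal numbers to assemble ribosomes. In flies many of them start transcription at a pyrimidine-rich initiator, the TCT motif, in place of the common initiator, and the factors DREF and M1BP, which recognise the DNA replication-related element (DRE) and Motif 1, are known at many of their promoters. Klu belongs to the EGR/WT1 group of zinc finger transcription factors and is known for its part in neural stem cells and in sensory organs.

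A gene is called bound when a summit of the pooled thresholded peak list lay within 1 kb of one of its annotated starts, and its signal is the deposited signal of the strongest such peak. The term describes a peak position and nothing about regulation. The values given for a replicate are those of its highest candidate peak within 1 kb of a start, which in a few members, such as RpL23, RpL18, RpS12 and RpS28b, is not the same peak as the pooled one in 1 of the replicates. What the signal measures and its scale are not stated in the sources used here, so it is compared within 1 list only. The sequences around the strongest summits are shown first, since they are where the deposited signal of the family was highest. They are 101 bp centred on the summit, read 5' to 3' on the strand of the gene, from the 6 bound members of highest signal whose windows could be printed here. Capitals mark a match to a searched motif, TATAAA in RpL34b and the E-box CAGCTG in RpS27. In the dm6 assembly the windows are 3R:9401300-9401400 (minus strand) for RpL34b, 3R:25247515-25247615 (minus) for RpS27, 3L:1668707-1668807 (minus) for RpL23A, 3R:30046270-30046370 (minus) for RpL32, 3L:8600905-8601005 (plus) for RpL14 and 3R:20821957-20822057 (plus) for RpS20. The bases are those of the reference genome (release 6).
RpL34b: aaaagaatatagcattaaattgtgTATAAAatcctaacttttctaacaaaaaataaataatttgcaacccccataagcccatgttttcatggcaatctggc
RpS27: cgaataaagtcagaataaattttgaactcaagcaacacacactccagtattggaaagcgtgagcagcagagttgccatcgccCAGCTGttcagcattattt
RpL23A: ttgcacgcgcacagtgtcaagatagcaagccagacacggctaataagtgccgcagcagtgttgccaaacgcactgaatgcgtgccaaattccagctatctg
RpL32: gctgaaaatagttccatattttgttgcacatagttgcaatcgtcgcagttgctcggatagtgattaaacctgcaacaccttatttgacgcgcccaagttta
RpL14: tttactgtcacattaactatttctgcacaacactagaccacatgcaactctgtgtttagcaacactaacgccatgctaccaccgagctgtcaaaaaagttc
RpS20: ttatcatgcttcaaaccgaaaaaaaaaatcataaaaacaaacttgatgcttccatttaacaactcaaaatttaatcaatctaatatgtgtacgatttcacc
None of the 6 windows held the DRE or the Klu/EGR site GTGGGCG or GTGGGTG, and 4 held no searched motif. Their GC content lay between 26.7% in RpS20 and 52.5% in RpL23A.

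Of the 92 ribosomal protein genes, 41 (44.6%) were bound, against a background of 2243 of all 13945 protein-coding genes (16.1%). The difference between these shares was not tested here. All 41 strongest peaks were different peaks, and each summit lay within 500 bp of an annotated start of some gene. The other 51 members had no pooled summit within 1 kb. The signal of the bound members ran from 66.1 to 358 with a median of 104, and the median over all bound protein-coding genes was 134. Only 15 of the 41 lay above that median, in which a peak shared by several genes counts once for each gene. Over all pooled peaks on the main arms the median was 106.24, and 20 members had a peak above it.

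**Figure D1:**
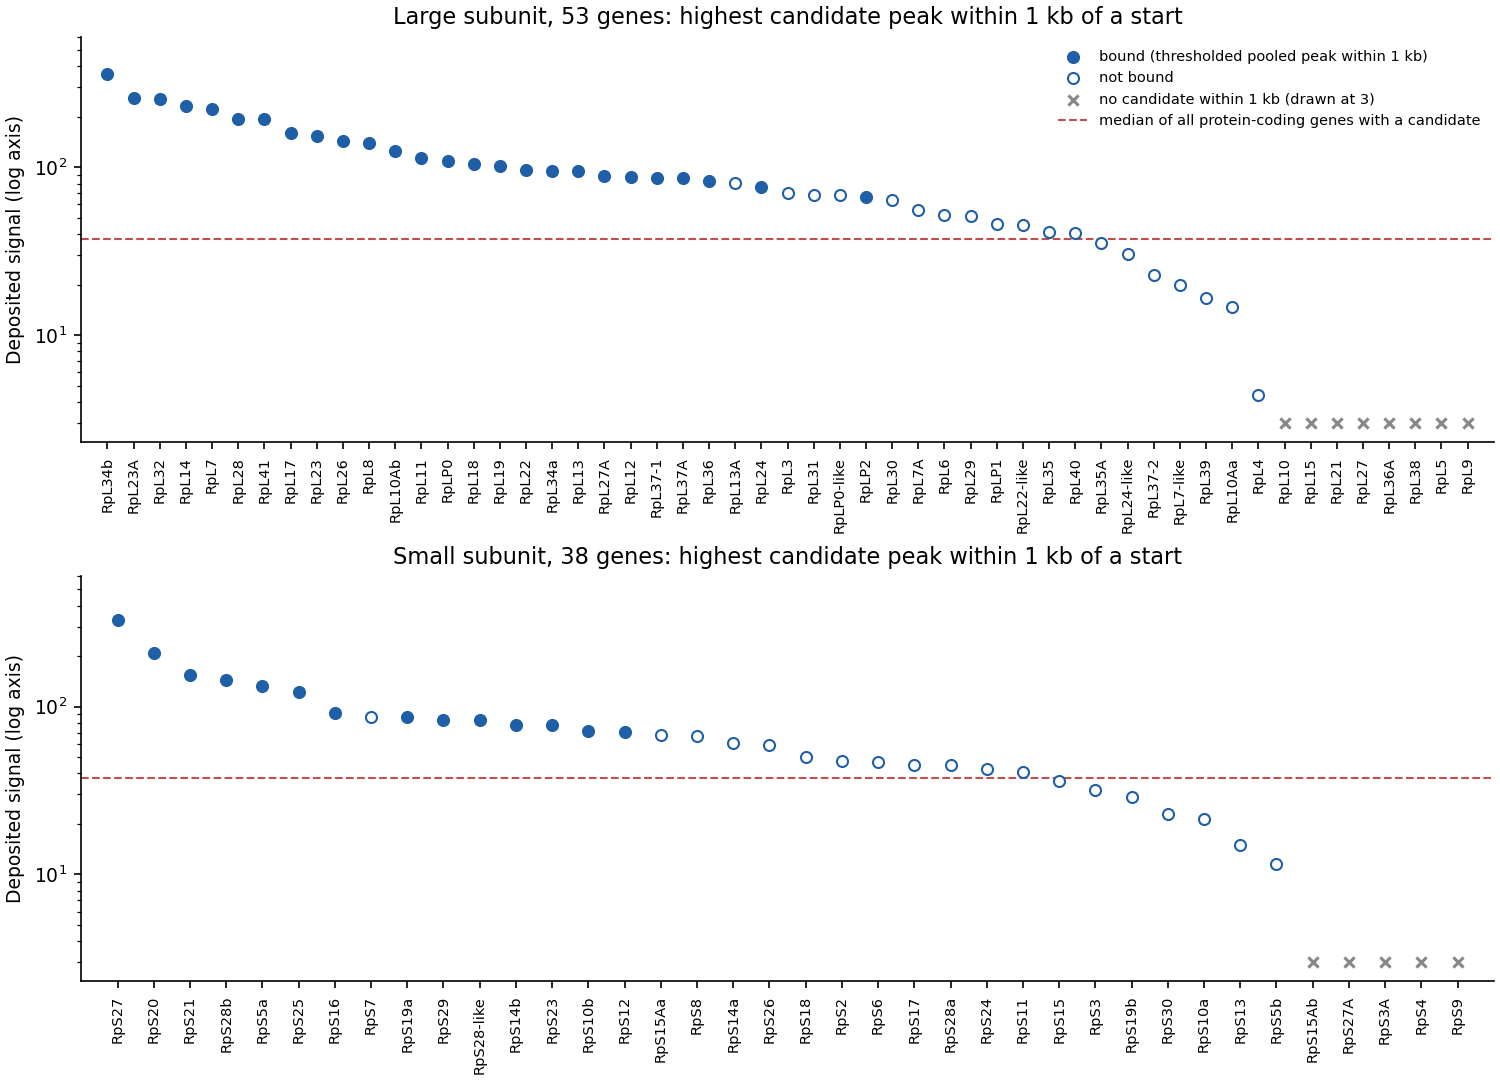
Highest candidate signal within 1 kb of a start for 91 ribosomal protein genes, from the ranked list of the series, on a log axis; filled points are bound genes, open points are not bound, and crosses, drawn at 3, mark the 13 genes with no candidate. Bound large-subunit genes run from RpL34b (358) to RpLP2 (66.1), and the dashed line is the median over all protein-coding genes with a candidate (37.3).

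Among the genes of the large subunit, 27 of 54 were bound. RpL34b had the highest signal of the family, 358 in the pooled list, with 150 in replicate 1 and 224 in replicate 2. Its summit at 3R:9401350 lay 124 bp before its start. RpL23A, whose product lies at the exit of the peptide tunnel, had a pooled signal of 258, with 127 in replicate 1 and 130 in replicate 2. Both replicates put these genes far above their own median over all protein-coding genes with a candidate, which was 20.9 in replicate 1 and 23.7 in replicate 2. Since these genes were named for their high pooled signal, high values in the replicates follow from that choice.

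RpL32, widely used as a reference gene in fly expression studies, had a pooled signal of 256, with 91.7 in replicate 1 and 184 in replicate 2. RpL14 had a pooled signal of 233, with 89.2 in replicate 1 and 146 in replicate 2. RpL7 had a pooled signal of 223, with 115.3 in replicate 1 and 109 in replicate 2, and its summit at 2L:10201043 lay 39 bp after the nearest of its starts. These 3 peaks were again in the thresholded lists of both replicates.

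RpL28 had a pooled signal of 195, with 54.9 in replicate 1 and 141 in replicate 2. RpL41, the smallest ribosomal protein, had a pooled signal of 194, with 73.5 in replicate 1 and 118 in replicate 2. RpL17 had a pooled signal of 159, with 62.9 in replicate 1 and 88.1 in replicate 2. All 3 were in the lists of both replicates, whereas RpL23, next at 154 with 48.1 in replicate 1 and 88.6 in replicate 2, was in the list of replicate 2 only. For RpL23 the replicate 1 candidate at the pooled peak itself had 36.8. The other 18 bound large-subunit genes had pooled signals between 66.1 (RpLP2) and 143 (RpL26). RpLP0 and RpLP2, which with RpLP1 form the stalk that recruits elongation factors, had signals of 110 and 66.1, and RpLP1 was not bound.

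Among the genes of the small subunit, 14 of 38 (36.8%) were bound, and the difference from the large subunit was not tested. RpS27 led with a pooled signal of 326, with 129 in replicate 1 and 184 in replicate 2, and its summit at 3R:25247565 lay 51 bp before the start. RpS20 had a pooled signal of 209.5, with 80.2 in replicate 1 and 121 in replicate 2. RpS21, whose loss in flies is known to give overgrown blood-forming organs, had a pooled signal of 155, with 77.9 in replicate 1 and 78.4 in replicate 2. All 3 were in the lists of both replicates. The median signal of the bound genes was 109.75 for the large and 88.97 for the small subunit, and 4 of the 14 bound small-subunit genes lay above the median of all bound genes.

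RpS6, the ribosomal target of S6 kinase, and RpS3, a protein at the mRNA entry, were not bound in the pooled list. RpS27A and RpL40, which are made as fusions with ubiquitin, were not bound either. RpL3, RpL4 and RpL10 of the large subunit were without a pooled peak, whereas RpL8, RpL17 and RpL23A had signals of 139, 159 and 258. The genes of this paragraph were picked as examples and do not stand for a functional class.

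The summits of the bound members lay close to the starts. Their median distance from the nearest start of the gene was 94 bp, against 177 bp for all bound protein-coding genes. Along the gene the median position was -70 bp, against -149 bp, and 35 of the 41 summits lay before the start (85.4%, against 84.2%). For 22 members (53.7%) the summit was within 100 bp of a start, against 22.8% of all bound genes, and for 38 (92.7%) it was within 250 bp, against 66.6%. For 31 members (75.6%) it lay between 1 and 200 bp before the start, against 49.3%. The bound large-subunit genes had a median distance of 103 bp and the bound small-subunit genes one of 56 bp. These differences were not tested, and the position of a summit is that of a peak call, with no error given in the lists.

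**Figure D2:**
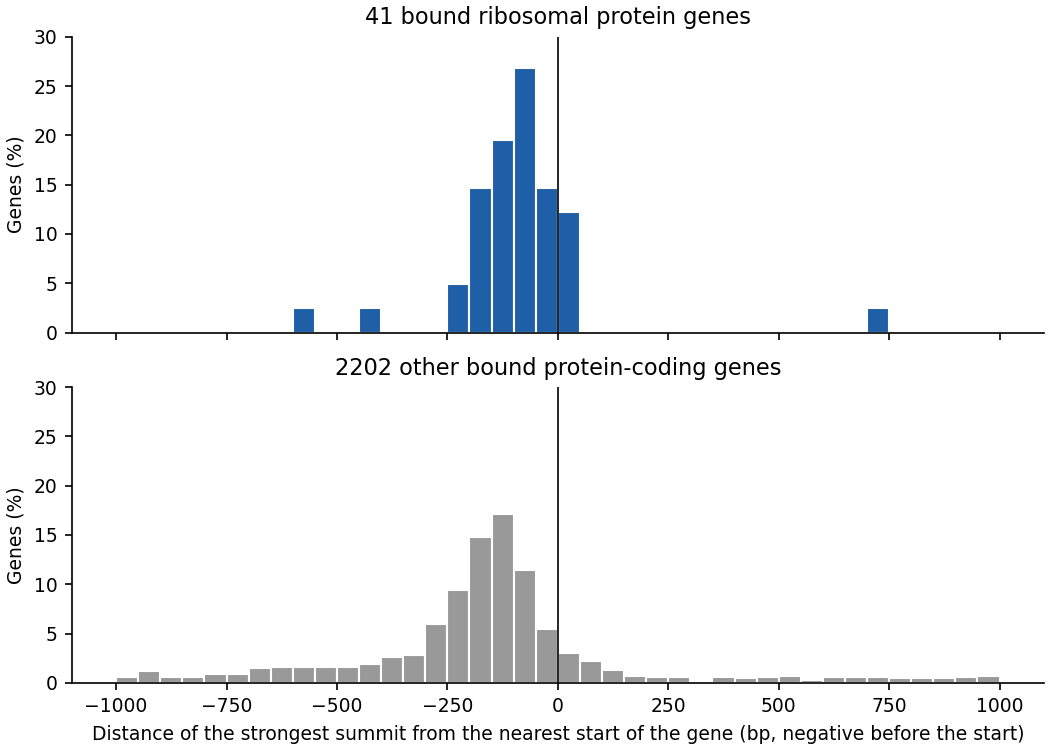
Distance of the strongest summit from the nearest start of the gene in bins of 50 bp (x axis, negative before the start) as a share of genes (y axis, %), for the 41 bound ribosomal protein genes (upper) and the 2202 other bound protein-coding genes (lower). The ribosomal protein genes lie mostly within 250 bp of the start, with 3 summits farther out, at RpS12, RpL18 and RpS28-like.

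Many ribosomal protein genes share a short promoter region with a gene that starts in the opposite direction. Of the bound members, 26 (63.4%) had the start of such a head-to-head neighbour within 1 kb upstream, as did 29 of the 51 unbound members (56.9%), 64.3% of all bound protein-coding genes and 36.2% of all protein-coding genes. The median distance between the 2 starts was 291 bp, and 14 of the 26 neighbours started within 300 bp. Of the 41 bound members, 28 (68.3%) had a strongest peak that was within 1 kb of 2 or more genes, against 63.1% of all bound genes. A peak between 2 such starts cannot be given to either gene.

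The summit lay nearest to the member's own start in 32 of 41 cases (78.0%, against 68.7% of all bound genes). The own start was nearest in 18 of the 26 members with a head-to-head neighbour and in 14 of the 15 without. In RpS27, for instance, the start of the nucleoporin gene Nup37 was 144 bp away, and the summit was nearer to RpS27. RpL14 had Nelf-E, which encodes a subunit of the negative elongation factor, at 127 bp, and RpL28 had the translation initiation factor gene eIF1 at 381 bp. In both the summit was nearer to the ribosomal protein gene.

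In 9 bound members the summit was nearer to another gene, and in 8 of these that gene was the head-to-head neighbour. They included RpL32 (nearer to CG7943), RpS20 (CG17271), RpL41 (the sodium channel gene NaCP60E), RpL18 (Neos), RpL34a (the tRNA methyltransferase gene Trmt61), RpL13 (Dref) and RpS12 (Adk2). In RpS28-like, the 1 case with no such neighbour, the summit lay 749 bp after its start and nearest to numb, the Notch inhibitor gene. RpS12, at -563 bp, and RpS28-like were the bound members whose summit was over 500 bp from their own start. RpL18 followed at -401 bp. Dref, the gene of the factor that recognises the DRE, starts 84 bp from RpL13, and both share a peak with a signal of 94.5.

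Both replicates did not give the same set. The list of replicate 1 held 1553 peaks and that of replicate 2 held 2585. By the list of replicate 2 alone, 40 members were bound, against a background of 14.9% of all protein-coding genes, and by the list of replicate 1 alone 16 were bound, against 8.96%. The lists of both replicates held 15 members, against 8.07% of all genes, 9 of the large and 6 of the small subunit. These 15 were RpL7, RpL8, RpL14, RpL17, RpL23A, RpL28, RpL32, RpL34b, RpL41, RpS5a, RpS20, RpS21, RpS25, RpS27 and RpS28b. The same 15 were in all 4 thresholded lists.

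Of the 41 bound members, 20 (48.8%) were found again in the list of replicate 2 only, against 34.6% of all bound genes, and 17 of these 20 belong to the large subunit. The 10 with the highest signal among the bound members outside the lists of both replicates were RpL23 (154), RpL26 (143), RpL10Ab (126), RpL11 (114), RpLP0 (110), RpL18 (104), RpL19 (101), RpL22 (96.6), RpL34a (94.8) and RpL13 (94.5). All 10 were in the list of replicate 2 only. For RpL18 the peak in that list had 53.4, but the candidate at the pooled peak itself had 47.2 in replicate 1 and 24.6 in replicate 2. RpL34a had 15.1 in replicate 1 and 87.3 in replicate 2. RpS29 was the 1 bound member in the list of replicate 1 only, with 46.3 in replicate 1 and 43.3 in replicate 2. RpL12, RpS12, RpS19a, RpS23 and RpS28-like were in the pooled list but in neither replicate list (12.2%, against 11.1% of all bound genes).

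**Figure D3:**
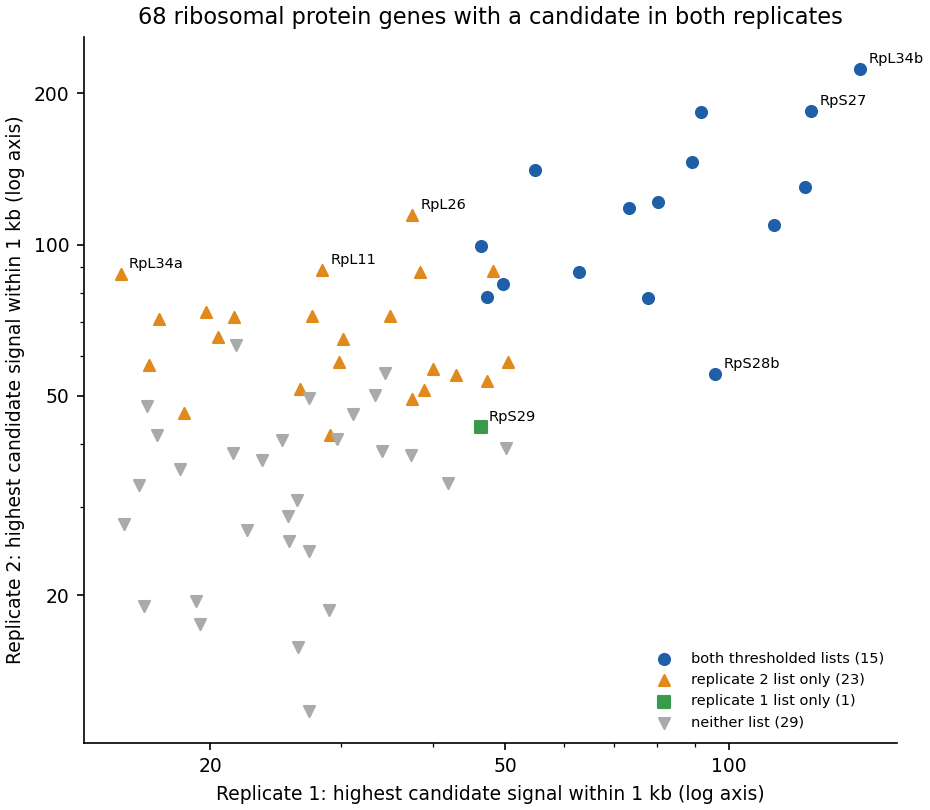
Highest candidate signal within 1 kb of a start in replicate 1 (x axis) and replicate 2 (y axis), both log axes, for the 68 ribosomal protein genes with a candidate in both; symbols give the thresholded lists that hold a peak for the gene. The genes of both lists reach the highest values in both replicates, and those of the replicate 2 list only overlap the lower of them in replicate 1 and extend down to RpL34a at 15.1.

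The ranked lists, which hold far more peaks than the thresholded lists, gave values for more members. Their peaks are called candidates here. A gene without a candidate in the ranked list of the series can have one in a replicate. A candidate within 1 kb was present in replicate 1 for 77 members and in replicate 2 for 75. Over the 41 bound members Spearman's rho between the replicates was 0.506, and Pearson's r was 0.572 on the log2 scale. Over the 27 unbound members with a candidate in both, Spearman's rho was 0.0238. Over 2198 bound protein-coding genes with a candidate in both, rho was 0.719. Without the split by the pooled list, rho was 0.597 over 68 members and 0.595 over 8892 protein-coding genes with a candidate in both. The effect of that split on rho was not tested. These are descriptions across genes, which share the same 2 libraries and are not replicates. In percentiles among all protein-coding genes the median bound member stood at 89.5 in replicate 1 and 89.8 in replicate 2, against 91.8 and 91.7 for all bound protein-coding genes. Replicate 2 gave the higher percentile in 23 of 41. Since bound genes are those of the pooled list, high percentiles in both replicates follow from that choice.

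In the ranked list of the series, 79 of 92 members (85.9%) had a candidate within 1 kb, against 83.1% of all protein-coding genes. Where there was one, the median signal was 76.4 for the members and 37.3 for all genes. For the unbound members it was 45.0 over the 38 with a candidate, against 33.0 over all unbound genes with one, and 26 of the 51 unbound members stood above the 50th percentile of all genes. The unbound members were thus spread widely. At the upper end, 7 of them had a candidate above 66.1, the lowest signal of a bound member, but were not in the pooled list.

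The highest was RpS7, with 87.0 in the ranked list of the series, 34.4 in replicate 1 and 55.5 in replicate 2. RpL13A had 80.1, with 21.7 in replicate 1 and 63.0 in replicate 2. Its deposited score of 1000 was above 830, the lowest score in the pooled thresholded list. It was the 1 unbound member at such a score, among 111 ranked peaks on the main arms that reach it and are not in the pooled list. RpL3, RpL31, RpLP0-like and RpS15Aa had 70.0, 68.3, 68.1 and 67.9. The signals of bound and unbound members thus overlapped, with RpLP2 at 66.1 and RpS12 at 70.5 the bound members of lowest signal. The scores of RpS7, RpL31 and RpS15Aa, at 801, 776 and 812, came nearer to 830 than those of RpL3 at 664 and RpLP0-like at 88.

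At the lower end, the 6 lowest candidates belonged to RpL4 (4.40), RpS5b (11.5), RpL10Aa (14.7), RpS13 (14.96), RpL39 (16.7) and RpL7-like (19.97). A further 13 members had no candidate within 1 kb in the ranked list of the series, namely RpL5, RpL9, RpL10, RpL15, RpL21, RpL27, RpL36A, RpL38, RpS3A, RpS4, RpS9, RpS15Ab and RpS27A. Of these, RpL15 (51.8) and RpS4 (70.5) had a peak in the thresholded list of replicate 2. In that list were also RpL30, RpL31 and RpS14a, which together with them made 5 members of a replicate list that were not in the pooled list. RpS6, RpS7 and RpS15Aa were in the conservative list of the series but not in the pooled list. In all, 49 members had a peak in at least 1 of the 4 thresholded lists and 43 had one in none. The share of all protein-coding genes by this rule is not given here, so these counts are not set against a background.

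Several members share most of their name, and in most of these sets exactly 1 gene was bound. The sets rest on names alone, and 5 members of them are named -like. Names that are alike once a final a, b, -like or hyphen with a digit is removed gave 13 sets with 27 members, 12 sets of 2 genes and 1 of 3. Exactly 1 gene was bound in 10 sets, more than 1 in 2 sets, and none in 1 set. In these sets 14 of the 27 members were bound, and outside them 27 of 65, against 16.1% of all protein-coding genes. How many sets would hold exactly 1 bound gene at such shares was not tested. RpL7 had 223 and RpL7-like 19.97 in the ranked list of the series. RpS5a had 133 and RpS5b, a gene known for its expression in the germline, 11.5. RpL10Ab had 126 and RpL10Aa 14.7. In these 3 sets the bound gene stood far above the other.

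RpLP0 had 110 and RpLP0-like 68.1. RpL22 had 96.6 and RpL22-like, a gene known from the testis, 45.1. RpL37-1 had 86.4 and RpL37-2 22.6. The same order held in RpS19, where RpS19a had 86.2 and RpS19b 29.1, and in RpL24, where RpL24 had 76.4 and RpL24-like 30.3. In RpS10 the gene RpS10b had 71.1 and RpS10a 21.4. RpS14b had 77.4 and its tandem neighbour RpS14a 61.0, with RpS14a found in the list of replicate 2.

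The exceptions were RpL34, RpS28 and RpS15A. RpL34b had 358 and RpL34a 94.8, both bound. RpS28b had 143, with 96.0 in replicate 1 and 55.2 in replicate 2 (52.8 at the pooled peak), RpS28-like had 83.1 at the summit nearest to numb, and RpS28a had 44.9 and was not bound. In RpS15A neither gene was bound, RpS15Aa having 67.9 and RpS15Ab no candidate. Reads from genes of nearly the same sequence may not be told apart, and the sources used here do not say how such reads were treated.

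**Figure D4:**
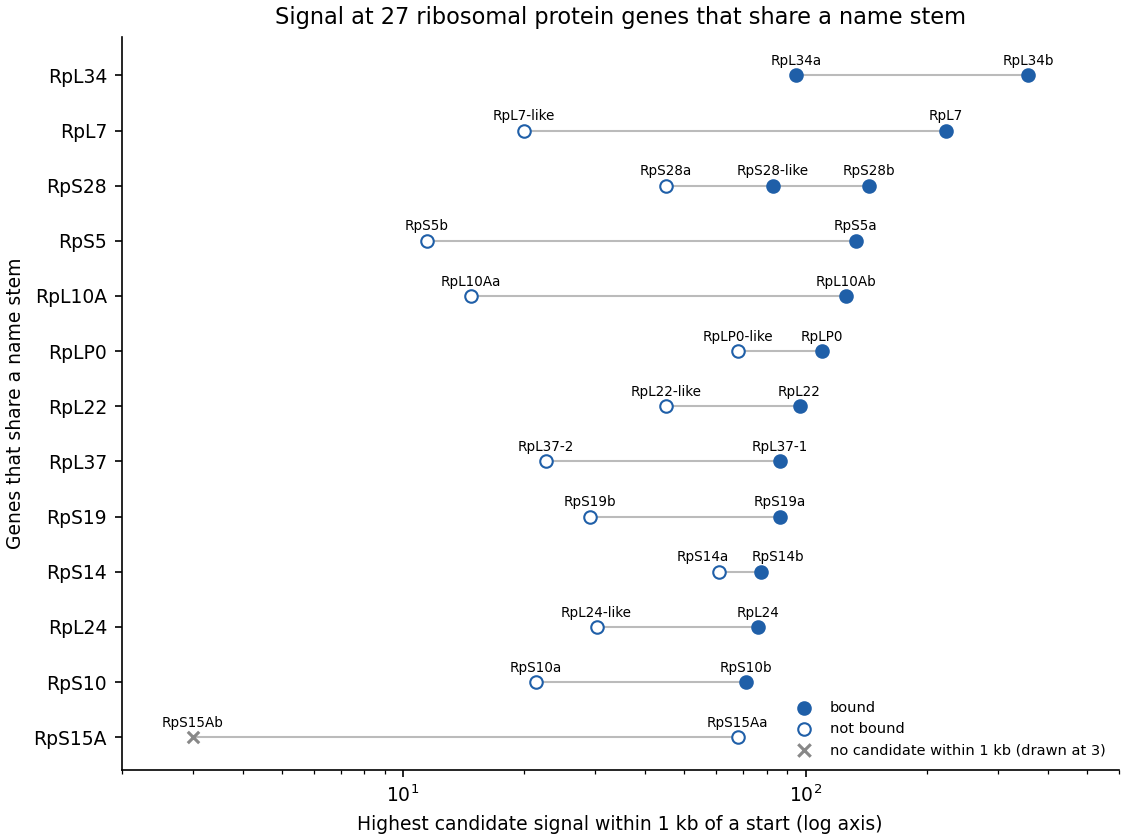
Highest candidate signal within 1 kb of a start in the ranked list of the series (x axis, log) for the 27 ribosomal protein genes that share a name stem (y axis, 13 stems); filled points are bound genes, open points are not bound, and the cross is RpS15Ab, which has no candidate and is drawn at 3. In 10 stems 1 filled point lies to the right of an open one.

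The TCT initiator was read as C or T followed by CTTTCT or CTTTTT on the strand of the gene, with its first C of CTTT within 10 bp of an annotated start. It was found at 40 of 92 members (43.5%), against 1.40% of all protein-coding genes. It was found at 19 of 41 bound members (46.3%) and 21 of 51 unbound members (41.2%), against 2.36% of all bound genes, and the difference between bound and unbound members was not tested. The C lay 0 to 10 bp from the annotated start, with a median of 4 bp. Windows of 36 bp, from 15 bp before the annotated start to 20 bp after it, are shown for 4 bound members, RpL14 (3L:8600991-8601026, plus strand), RpL18 (3L:7241331-7241366, minus), RpL34b (3R:9401206-9401241, minus) and RpS25 (3R:11216267-11216302, minus), and then for 4 unbound members, RpL4 (3R:27922806-27922841, plus), RpS3 (3R:23358797-23358832, plus), RpS6 (X:7901311-7901346, minus) and RpS9 (3L:9511511-9511546, minus). Capitals mark the initiator, shown to compare both sets.
RpL14: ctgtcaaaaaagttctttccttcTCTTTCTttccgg
RpL18: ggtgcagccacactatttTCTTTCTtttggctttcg
RpL34b: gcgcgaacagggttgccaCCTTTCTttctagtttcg
RpS25: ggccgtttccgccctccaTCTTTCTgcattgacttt
RpL4: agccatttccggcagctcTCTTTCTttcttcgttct
RpS3: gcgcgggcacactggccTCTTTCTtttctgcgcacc
RpS6: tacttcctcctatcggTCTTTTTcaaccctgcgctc
RpS9: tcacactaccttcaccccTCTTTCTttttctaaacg
All 8 were chosen for carrying a match, so the windows show the form of the initiator and not how often it occurs.

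The other motifs were searched on both strands from 250 bp before to 50 bp after each start. The DRE, TATCGATA, was found at 14 bound members (34.2%) and 14 unbound members (27.5%), against 14.3% of all bound genes and 10.2% of all protein-coding genes. There were 32 DRE sites at 28 members, 16 of them at bound members with a median position 58 bp before the start and 16 at unbound members with a median of 47 bp before it. Of the 16 sites at bound members, 10 lay within 100 bp of the summit. Within 50 bp of the summit itself, 8 bound members (19.5%) held a DRE, against 3.03% of all bound genes. They included RpL19, RpL26, RpL28, RpL36, RpL37-1, RpS25 and RpS29. The summits of bound members also lay nearer to starts, at a median of 94 bp against 177 bp for all bound genes. The part of this in the motif counts at summits was not tested. Windows of 40 bp around the DRE, in capitals, are shown for RpL28 (3L:3223029-3223068, minus strand), RpL26 (3L:18898845-18898884, plus), RpS25 (3R:11216323-11216362, minus), RpL36 (X:629454-629493, minus) and RpL37-1 (X:15139401-15139440, minus), on the strand of the gene.
RpL28: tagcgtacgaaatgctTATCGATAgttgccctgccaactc
RpL26: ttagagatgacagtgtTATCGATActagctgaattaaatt
RpS25: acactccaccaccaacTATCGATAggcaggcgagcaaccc
RpL36: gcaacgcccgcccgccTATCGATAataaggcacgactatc
RpL37-1: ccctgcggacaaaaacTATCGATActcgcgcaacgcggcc
The middle of the DRE was 3 bp from the summit in RpL37-1, 4 bp in RpL36, 5 bp in RpS25, 32 bp in RpL28 and 34 bp in RpL26.

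The site of the EGR family to which Klu belongs, GTGGGCG or GTGGGTG, was also searched. It was found near the starts of 3 bound (7.32%) and 2 unbound members (3.92%), all of the large subunit, against 13.9% of all bound genes and 8.88% of all protein-coding genes. No bound member held it within 50 bp of the summit, against 4.06% of all bound genes and 4.50% of all pooled peaks on the main arms. Within 100 bp of the summit 1 bound member held it. With so few genes these counts were not far from the background shares. These letters are 1 short form of the site, and their absence from a window says nothing further about the factor. The E-box CAGCTG was found at 6 bound (14.6%) and 5 unbound members (9.80%), against 32.6% of all bound genes and 22.3% of all genes, and within 50 bp of the summit in 4 bound members (9.76%, against 3.61%).

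Motif 1, searched as GGTCACAC, was found at 6 bound (14.6%) and 9 unbound members (17.7%), against 13.2% of all bound genes and 8.71% of all genes. Motif 6, as GTATNTTT, was found at 11 bound (26.8%) and 16 unbound members (31.4%), against 24.5% of all bound genes and 18.1% of all genes. Motif 7, as CATCNCTA, was found at 4 bound (9.76%) and 6 unbound members (11.8%), against 14.8% of all bound genes and 7.45% of all genes. GAGAG was found at 9 bound (22.0%) and 10 unbound members (19.6%), against 42.9% of all bound genes, TATAAA at 20 bound (48.8%) and 27 unbound members (52.9%), against 55.4%, and the Zelda site CAGGTA at 2 bound (4.88%) and 5 unbound members (9.80%), against 9.32%. The count of TATAAA at bound members depended on the window and was 9 within 100 bp of a start. Within 50 bp of the summit TATAAA was found in 3 bound members (7.32%), against 23.9% of all bound genes, and within 100 bp in 11. In the window near the starts the initiator and the DRE stood furthest above their share at all bound genes, and GAGAG and the E-box furthest below it.

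**Figure D5:**
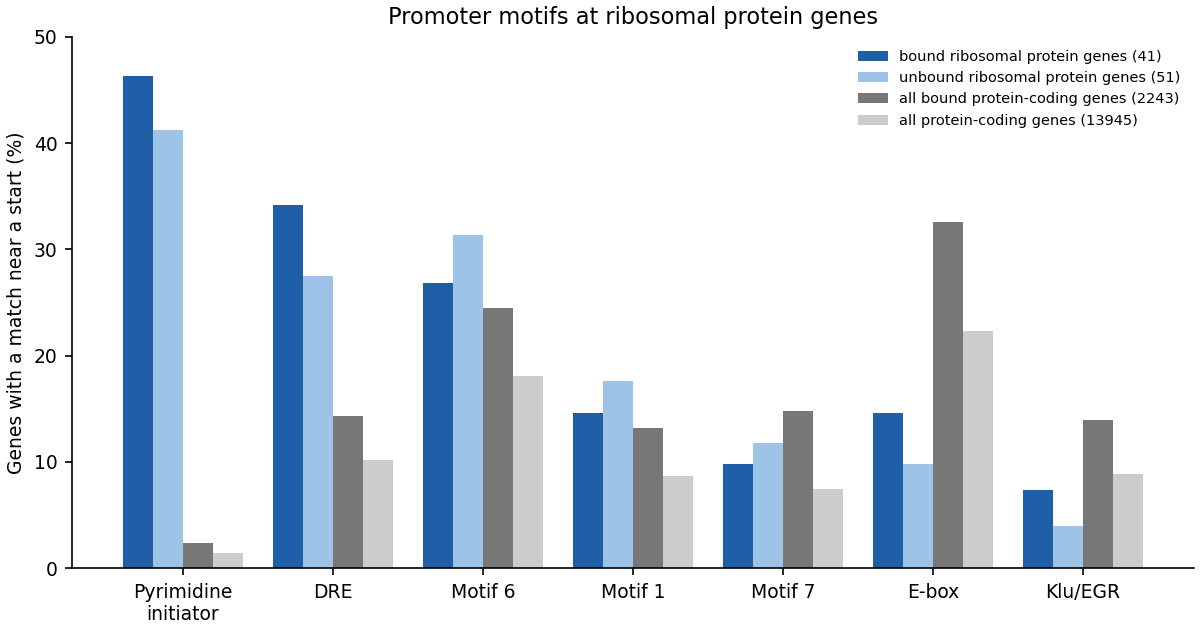
Share of genes with a match to 7 of the 10 searched motifs near a start (y axis, %), for bound ribosomal protein genes, unbound ribosomal protein genes, all bound protein-coding genes and all protein-coding genes. The pyrimidine initiator is at 46.3% and 41.2% of bound and unbound ribosomal protein genes and at 2.36% and 1.40% of the other sets, while the E-box and Klu/EGR bars of the ribosomal protein genes are the lower ones.

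The summits of the bound members lay in sequence richer in GC than those of other bound genes, a difference that was not tested. The median GC content in 101 bp at the summit was 43.6% in bound members, from 19.8% in RpL27A to 63.4% in RpS28-like, against 31.7% for all bound genes. Near the starts it was 39.5% in bound members, 35.99% in unbound members and 38.5% over all protein-coding genes. Whether GC content bears on the motif counts was not tested.

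Some features of the genes themselves were also compared. Bound members had a median length of 1361 bp and unbound members one of 1191 bp, both far shorter than all bound genes (3394 bp) and all genes (2166 bp). Of bound members 41.5% had 1 annotated start, against 60.8% of unbound members, 55.7% of all bound genes and 73.5% of all genes. A gene with more starts has more sequence within 1 kb of one, and the part of this in the count of bound members was not tested. With the most upstream start only, 41 members were bound, against 14.5% of all genes.

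Ribosomal protein genes are known as hosts of small nucleolar RNA (snoRNA) genes, which guide modification of ribosomal RNA. Here 28 of 92 members (30.4%) had an annotated snoRNA gene inside, 74 snoRNA genes in all, against 84 of all protein-coding genes (0.602%) with 203. Hosts were 13 of 41 bound members (31.7%) and 15 of 51 unbound members (29.4%). RpS5a, bound in both replicate lists, hosted 14, the largest number among bound members. RpS7, the unbound member with the highest signal, hosted 7.

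By chromosome arm, 9 of 14 members were bound on X, 7 of 19 on 2L, 9 of 21 on 2R, 9 of 14 on 3L and 7 of 23 on 3R, and the 1 member on arm 4, RpS3A, was not bound. Of all protein-coding genes between 15.1% (2R) and 17.6% (3L) were bound on these arms, and 1.25% on arm 4. The numbers of members per arm are small and no test was made.

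The count of bound members stayed within 1.5 times under other distance rules and moved more with the list. Within 500 bp of a start 39 members were bound, against 13.9% of all genes, and within 250 bp 38, against 11.3%. When each peak went to the gene of the closest start, however far, 32 were bound, against 16.0%. Without peaks that overlap a stronger one, 41 were bound, against 16.1%. The conservative list gave 30, against 13.1%, and the peaks above the median signal gave 20, against 10.5%. That last count falls by construction, since it uses fewer peaks. In each of these counts the share of members bound was above the background share.

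A list of 29 other genes of the translation machinery and its control was also read, of which 11 were bound, against the 16.1% of all protein-coding genes. Of the remaining small-subunit genes, Rack1 had a signal of 93.6 at 9 bp after its start, and sta was not bound. Among elongation factors eEF1gamma had 162, eEF1alpha1 124 and eEF2 65.0, while eEF1alpha2, eEF1beta, eEF1delta and eEF5 were not bound. For eEF2 there was no candidate within 1 kb in replicate 1, and replicate 2 gave 27.5. Among genes of ribosome assembly and the nucleolus, eIF6 had 934, Ns2 319, Nopp140 98.0 and NHP2 96.5. Nop56 had 137, at a summit nearer to mats, and Fib, nop5, Nop60B, Non1, Ns1 and Ns3 were not bound. The signal of eIF6, whose product keeps the subunits apart, was thus higher than that of any ribosomal protein gene.

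Of the factors known at ribosomal protein promoters, M1BP had a peak with a signal of 138, with 12.6 in replicate 1 and 127 in replicate 2, and Dref shared the peak of RpL13. Trf2, needed for transcription from the TCT initiator in flies, was not bound, and neither were the growth regulator Myc, Xrp1 (a factor known from cells short of ribosomal proteins), Tctp, Tif-IA, Polr1A and Polr1B.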

How the data were processed

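The authors deposited 8 peak lists in dm6, per the labels, for 2 biological replicates of 1 group. There were ranked and thresholded lists per replicate and for the series, the thresholded series lists being called pooled (3126 peaks, 3087 on the main arms) and conservative (2413 peaks). The series had 2 ranked lists. The ranked list of the series used here was the one that held the most pooled thresholded peaks, 3126 of 3126. The deposited score (column 5) is 830 to 1000 in the pooled thresholded list. The deposited signal (column 7) is a value of unstated kind and scale. The summit, an offset from the peak start as the authors deposited it, placed each peak. For aligner and peak caller, nothing is stated in the sources used here. The lists hold no counts, so depth is unknown. The values of 1 member are counted but not reported here by name.

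Genes and starts came from Ensembl release 115 (BDGP 6.54), and arm lengths of the release 6 genome covered all peak ends. Python 3.11.15, pandas 2.3.3 and numpy 2.4.6 were used. Summits were assigned to genes within 1 kb of any start. For 200 of 200 simulated summits, planted within or beyond 1 kb of a start, the step correctly assigned or left out the gene. Differences were described, not tested. Members, lists and motifs were chosen with earlier results of these data known, and the stem rule for a hyphen with a digit was added after values were seen. Genes named were the 12 bound members of highest signal, all genes that share a name stem, bound members nearer to another gene or over 500 bp away, up to 10 found in 1 or no replicate list, the 6 unbound members with the highest and the 6 with the lowest ranked signal, and a list of 29 translation genes; others named were chosen after their values were seen.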

Additional observations from a re-analysis of the deposited data

How the results depend on the processing

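Of 57 values of 7 results under other settings, 40 stayed within the stated margin and 17 did not. The margin was 1.5 times for a count. For a median it was the standard deviation of the values from the 2 replicate lists, 4.46 for signal and 29.3 bp for distance. Those lists hold different bound members, so this margin is not the spread of the same genes between replicates. With the peaks above the median signal, 20 members were bound, 14 of the large and 6 of the small subunit, 17 with their own start nearest, and the median signal was 156.94. Leaving out 1 replicate gave 16 to 40 bound members, 9 to 29 of the large and 7 to 11 of the small subunit, 15 to 35 with their own start nearest, median signals of 72.7 to 79.0 and median distances of 62 to 103.5 bp; the lower counts are those without replicate 2. The median signal was 136.12 in the conservative list, 109.75 within 500 bp, and 111.78 both within 250 bp and with the nearest start at any distance, where the median distance was 56.5 bp. Signals of different lists may differ in scale. The 15 members in the lists of both replicates numbered 15 under the other rules for matching peaks and within 500 bp. Of 18 motif counts with another window, 9 stayed within 1.5 times. By construction the wider windows at summits gave 7 higher counts, and the shorter ones before starts went with 7 lower counts, among them TATAAA (9, against 20). The cause of the shifts between lists was not tested. No paired analysis was possible because there is 1 group. Peak numbers depend on sequencing depth, which the lists do not give.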
